A study of Mus musculus with 20 samples.

Results

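The transcripts described here are those with more ribosome footprints on ribosomes captured through RPS25 than on all ribosomes of the same cells, and with no such excess on ribosomes captured through RPL10A. They were chosen by 2 ratios of footprint density. R25 is the log2 ratio of the mean RPKM + 1 (RPKM is read density scaled to transcript length and library size) in RPS25-captured ribosomes over that in total ribosomes of the Rps25 line, and R10 is the same ratio for RPL10A in the Rpl10a line. A transcript was taken when R25 was at least 0.6, when R10 was at most 0.2 and when it was also measured in the RNA-seq of polysome fractions. This gave 103 of the 7704 transcripts measured in all 3 tables, called RPS25-only transcripts below. A further 270 transcripts had an R25 of at least 0.6 but an R10 above 0.2. The rule also leaves out 2 transcripts by name, neither of which met its condition on R10: uc009iah.3 had an R25 of 1.30 and an R10 of 0.40, and uc007ilt.2 had an R25 of 1.63 and no value in the RPL10A table.

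RPS25 is a protein of the small ribosomal subunit that sits in the head of that subunit, and it is known for its part in initiation on viral internal ribosome entry sites. RPL10A forms part of the mobile L1 stalk of the large subunit, which contacts the transfer RNA as it leaves the ribosome. RPL22 is a large-subunit protein with a close paralog. In ribosome profiling, the mRNA stretch covered by each ribosome is protected from RNase and sequenced, so the density of footprints on a transcript reflects both how much of the mRNA is present and how many ribosomes it carries.

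All libraries came from E14, a mouse embryonic stem cell line that is pluripotent and was kept in serum with leukemia inhibitory factor. Footprints came from 3 tagged lines, each with an epitope tag on 1 allele of the endogenous gene (Rps25-3xFLAG, 3xFLAG-Rpl10a and Rpl22-3xHA), so that each line also holds ribosomes with the untagged protein. In each line, captured ribosomes (anti-FLAG beads for RPS25 and RPL10A, an anti-HA antibody for RPL22) were compared with total ribosomes pelleted through a sucrose cushion, with 2 libraries per group. Whether a line is a single clone is not stated in the labels, which also name the anti-HA antibody for the Rpl22 line's total ribosomes. The other 8 libraries were RNA-seq of wild-type cells given an Rpl10a siRNA or a control siRNA, from heavy polysomes (at least 4 ribosomes per mRNA) and from the remaining lighter fractions (free RNPs, subunits, monosomes and polysomes of 2 to 3 ribosomes), again with 2 libraries per group. All cells received cycloheximide at 100 µg/ml for 1 min before harvest. The files name transcripts by UCSC identifier and the tables at hand pair none of these with a gene, so no gene name or function is given, and the level of Rpl10a after siRNA was not analysed here.

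Footprint columns summed to between 1082511 and 1201737 RPKM and RNA-seq columns to between 943664 and 1067209 units of the deposited RPM value; read depth is unknown because the files hold no counts. Libraries numbered 1 and 2 of the RNA-seq stood apart for some of the RPS25-only transcripts. For 8 of 103, replicate 1 exceeded replicate 2 by more than 1.5 times in at least 3 of the 4 RNA-seq groups, against 1.47% of all 8084 transcripts, and for 1 (uc008nnw.2) replicate 2 exceeded replicate 1 in the same way, against 1.06% of all. uc009pbl.1 shows the first pattern (both transcripts were chosen for naming after their values were seen): it had 12.1 and 3.4 in heavy and 21.1 and 6.6 in light fractions with Rpl10a siRNA, against 15.8 and 7.0 in heavy and 22.4 and 7.1 in light fractions with control siRNA (deposited RPM values, replicates 1 and 2).

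The ratios that chose the transcripts are given as a description, without a test. R25 ran from 0.60 to 1.40 with a median of 0.70, and 52 of the 103 lay below 0.70, close to the threshold, while 12 reached 1. R10 ran from -1.20 to 0.19 with a median of 0.01: 49 transcripts had no more footprints in the RPL10A capture than in its total and 54 had more, up to the threshold. The 49 include uc029qvm.1, whose RPL10A capture and total had equal means (6.8 RPKM each). The distance between the ratios, R25 minus R10, had a median of 0.75 and reached 2.36. Just inside the R25 threshold were uc007lxr.1 (0.60) and uc007qpv.1 (0.601), and just outside it uc009kif.1 (0.594) and uc007lgh.1 (0.589). At the R10 threshold, uc009pzi.1 (0.194) and uc007wvd.1 (0.189) were inside, and uc008sed.2 (above 0.20 by less than rounding shows) and uc008lzr.2 (0.204) outside.

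**Figure D1:**
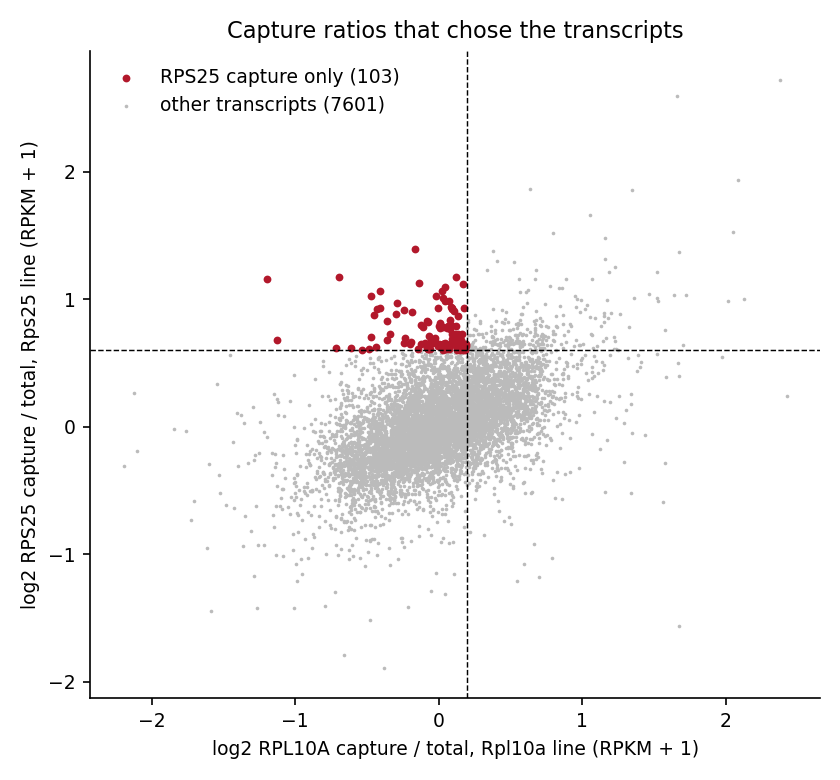
Each point is 1 transcript measured in all 3 tables, with the log2 ratio of RPL10A capture over total (x axis) and of RPS25 capture over total (y axis), both from mean RPKM + 1 of 2 libraries per group. Red points are the 103 RPS25-only transcripts, which fill the region above the dashed line at 0.6 and left of the dashed line at 0.2, most of them near its lower right corner.

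In 97 of the 103 transcripts both RPS25-captured libraries lay above both total libraries of the Rps25 line, a pattern that 27.9% of all 8779 transcripts in that table also showed and that the rule largely imposes here. The 2 captured libraries contributed about evenly. Set against the mean total, captured library 1 alone gave a ratio of at least 0.6 for 72 transcripts and captured library 2 alone for 74, and 43 reached it in each. The captured libraries of 28 transcripts differed from each other by more than 1.5 times. Membership therefore rested on the mean of 2 unequal values for many of them: with the first captured library alone the rule gave 179 transcripts, of which 72 are among the 103, and with the second alone 172, of which 74 are.

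The 12 transcripts with the widest distance between the 2 captures were lowly covered, with mean densities of 5.8 to 16.6 RPKM over the 4 libraries of the Rps25 line. uc009ine.1 lay farthest apart, at 26.3 and 16.5 RPKM in the RPS25 capture against 8.4 and 9.6 RPKM in total ribosomes of the Rps25 line. In the Rpl10a line the same transcript had 8.2 and 3.5 RPKM in the RPL10A capture against 19.7 and 9.7 RPKM in total ribosomes. Its groups did not overlap in either line, and they lay in opposite order.

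uc011ztw.1 followed, with 10.5 and 10.3 RPKM in the RPS25 capture against 4.2 and 3.9 RPKM in total ribosomes of that line. Its density was 7.7 and 6.7 RPKM in the RPL10A capture against 13.4 and 11.2 RPKM in the total libraries of the Rpl10a line. For this transcript too the captured libraries lay wholly above the total ones in the Rps25 line and wholly below them in the Rpl10a line. uc007xgo.2 had the highest R25 of all 103 (1.40), with 20.4 and 15.3 RPKM in the RPS25 capture against 5.0 and 7.3 RPKM in its total, while the RPL10A capture (6.5 and 4.6 RPKM) overlapped its own total (5.2 and 7.5 RPKM). 

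Opposite orders in the 2 lines were also seen in uc007nzr.2, uc007ehf.2, uc009nsw.1 and uc008dan.1. uc007nzr.2 had 20.1 and 25.2 RPKM in the RPS25 capture against 11.5 and 9.7 RPKM in its total, and 7.5 and 12.4 RPKM in the RPL10A capture against 14.3 and 14 RPKM in its total. uc007ehf.2 had 14.5 and 25.3 RPKM in the RPS25 capture against 8.6 and 9.4 RPKM in its total, and 7.9 and 5.9 RPKM in the RPL10A capture against 8.7 and 10.3 RPKM in its total. uc009nsw.1 reached its distance mostly through RPL10A (R25 0.68, R10 -1.12), with 3.7 and 3.2 RPKM in that capture against 9.6 and 7.8 RPKM in its total, and its RPS25 capture (7.7 and 7.1 RPKM) lay above an uneven pair of totals (6.1 and 2.4 RPKM). The remaining 6 were uc009axa.1, uc009aiz.1, uc008dan.1, uc007siy.2, uc009bwp.1 and uc007fxi.1, with R25 between 0.62 and 1.13 and R10 between -0.72 and -0.14. Among them, uc008dan.1 had 24.4 and 14.7 RPKM in the RPS25 capture against 11.9 and 12.8 RPKM in its total. Its RPL10A capture had 10.3 and 11.1 RPKM against 18.9 and 17.6 RPKM in its total.

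**Figure D2:**
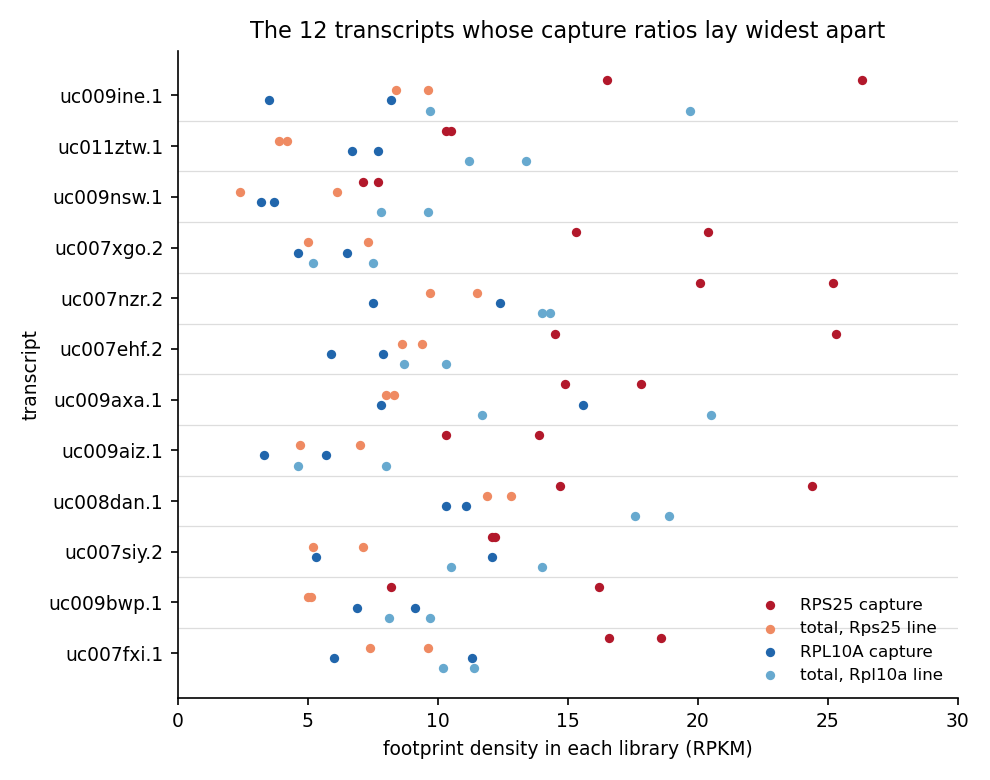
Footprint density in RPKM (x axis) of the 12 transcripts with the largest R25 minus R10 (rows, widest at the top), 1 point per library. The RPS25-captured libraries (dark red) lie to the right of the total libraries of the Rps25 line (orange) in every row, while the RPL10A-captured libraries (dark blue) lie to the left of the total libraries of the Rpl10a line (light blue) in the upper 3 rows and overlap them in some of the others.

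Among the RPS25-only transcripts the most abundant on ribosomes were uc008ljb.2 and uc008tuj.1. uc008ljb.2 had 710.6 and 905.8 RPKM in the RPS25 capture against 549.1 and 511.2 RPKM in its total, and 487.4 and 427.0 RPKM in the RPL10A capture against 459.1 and 505.1 RPKM in its total. uc008tuj.1 had 735.7 and 835.0 RPKM in the RPS25 capture against 537.7 and 492.1 RPKM in its total. In both, the RPS25 groups were separate and the RPL10A groups overlapped. The next 4 by level were uc008uzv.1, uc007rod.2, uc009elo.1 and uc007cyb.2, with means of 142.7, 125.1, 106.1 and 78.3 RPKM over the 4 libraries of the Rps25 line and R25 between 0.63 and 0.82.

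Most of the group was far less abundant. In total ribosomes of the Rpl22 line, which the rule did not use, the 85 transcripts measured there had a median of 12.4 RPKM, against 25.4 RPKM over all 8588. By quintiles of that level, 30 of the 85 fell in the lowest, 30 in the next, and 14, 8 and 3 in the higher ones. The Rpl22 table lacked 18 of the 103 transcripts.

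Captures and totals of the 2 lines both differed for these transcripts, an outcome that the rule largely imposes. Densities of the 2 lines come from tables that were normalized separately and were used by the rule, so they are given without a test. In the RPS25 capture the transcripts stood a median of 0.58 higher on the log2 scale than in the RPL10A capture, against -0.01 over the 7704 transcripts. There 96 of 103 stood higher, against 48.5% over the 7704. In the totals the RPS25-only transcripts stood a median of 0.23 lower in the Rps25 line than in the Rpl10a line (log2 difference -0.23, against -0.02 over the 7704). Of the 103, 29 stood higher in that line's total, against 46.8% over the 7704 transcripts.

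Totals of the Rps25 and Rpl10a lines are denominators of the ratios that chose the transcripts, so differences between the lines' totals are given only as values. uc009elo.1, one of the 6 most abundant, had 81.9 and 82.0 RPKM in total ribosomes of the Rps25 line, 160.1 and 166.0 RPKM in those of the Rpl10a line and 18.9 and 14.7 RPKM in those of the Rpl22 line. The 3 lines did not overlap for this transcript.

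The RPL22 capture provides another ribosome pull-down that the rule did not use. None of the 85 RPS25-only transcripts measured there was called by limma at an adjusted p below 0.05, and none of the 8588 of the whole table was (0.0% called). At an unadjusted p below 0.05 there were 19 of the 85 (22.4%), against 20.2% of all. Their median log2 ratio was -0.05, against -0.03 for all transcripts, and 37 of 85 (43.5%) were above 0, against 44.1% of all. The ratios ran from -0.54 to 0.49.

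The smallest p-values belonged to uc007jxz.1 and uc007lxr.1, which were not called. uc007jxz.1 had 64.8 and 62.8 RPKM in the RPL22 capture against 43.7 and 48.5 RPKM in total ribosomes (log2 ratio 0.46, SE 0.10, limma adjusted p = 0.116). uc007lxr.1 had 7.9 and 7.9 RPKM in the capture against 11.2 and 12.7 RPKM in the total (log2 ratio -0.54, SE 0.14, limma adjusted p = 0.122). The groups of each were separate, in opposite directions. uc009ine.1, the transcript farthest apart between the FLAG captures, had 22.4 and 21.0 RPKM in the RPL22 capture against 18.4 and 12.5 RPKM in the total (log2 ratio 0.49, SE 0.17, limma adjusted p = 0.164).

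**Figure D3:**
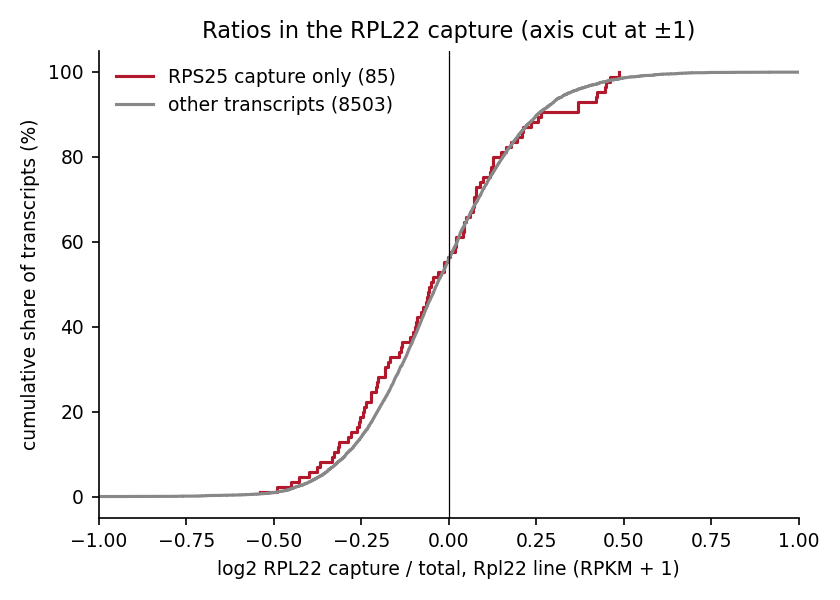
Cumulative share of transcripts (y axis, percent) by log2 ratio of RPL22 capture over total (x axis, RPKM + 1, drawn from -1 to 1), for the 85 RPS25-only transcripts measured in the Rpl22 line (red) and the other transcripts of that table (grey). Both curves cross 0 past the middle of the y axis and run close together, with medians of -0.05 for the RPS25-only transcripts and -0.03 for the whole table.

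In wild-type cells with control siRNA, the mRNAs of this group lay more often in the light than in the heavy fractions. Of the 103, 31 were called higher in the light fractions (30.1%, against 26.4% of all 8084 transcripts) and 14 higher in the heavy polysomes (13.6%, against 28.0% of all), and 58 were not called (limma, adjusted p below 0.05). The count of 45 called fell to 26 without the first control heavy or the first control light library, and to 29 without the second control light library, with 40.9% to 42.8% of all transcripts called in those fits. The median heavy-minus-light difference was -0.26 on the log2 scale, against -0.04 over all transcripts, and 34 of 103 (33.0%) were above 0, against 47.9%. The part of abundance in the lean toward light fractions was not tested. By quintiles of footprint density in the Rps25 line, whose libraries the rule used, the medians of the RPS25-only transcripts followed no single direction. In the lowest quintile the 37 RPS25-only transcripts had a median of -0.12, against -0.28 for all 1541, while in the next quintile the 36 had -0.42, against -0.20 for all 1542. In the 3 higher quintiles the medians of the 17, 8 and 5 RPS25-only transcripts were -0.40, -0.30 and -0.03, against -0.05, 0.18 and 0.33 for all, so the lowest quintile was the one in which they did not lie lighter than all transcripts. The 137 transcripts enriched in both FLAG captures (both ratios at least 0.6) had a median of -0.38, and the 147 enriched in the RPL10A capture only (R10 at least 0.6, R25 at most 0.2) had -0.04.

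The transcripts with the widest distance between the captures lay mostly on the light side. Of those 12, 11 had a heavy-minus-light difference below 0, with a median of -0.82, and 7 were called light and none heavy. Among the other 91 the median was -0.25, with 24 called light and 14 heavy. Over all 8084 transcripts the median was -0.04, with 26.4% called light, 28.0% called heavy and 47.9% above 0. Across the 103, the heavy-minus-light difference had a Spearman rho of -0.18 with R25 minus R10 and of -0.25 with R25, and across all 7704 transcripts the values were -0.09 and -0.16. These are descriptions over transcripts, which share the same libraries and differ in abundance.

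uc011ztw.1 was among the most light-sided, with deposited RPM values of 29.8 and 29.4 in heavy against 150.5 and 127.5 in light fractions (control siRNA; log2 difference -2.19, SE 0.29, limma adjusted p = 0.000370). uc007xgo.2 had 1.8 and 1.0 in heavy against 14.2 and 7.5 in light fractions (log2 difference -2.26, SE 0.40, limma adjusted p = 0.00159). Their groups did not overlap. uc008xbr.1 and uc007fxi.1 followed, at log2 differences of -1.74 and -1.72. uc007wvd.1, a more abundant mRNA, had 43.5 and 51.1 in heavy against 117.7 and 113.0 in light fractions (log2 difference -1.27, SE 0.15), and uc009ine.1, farthest apart between the captures, had 23.8 and 18.5 in heavy against 48.2 and 37.2 in light fractions (-0.98, SE 0.18).

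On the heavy side stood uc033gwu.1 and uc007pun.1. uc033gwu.1 had 24.8 and 14.1 in heavy against 4.7 and 4.3 in light fractions, and uc007pun.1 had 77.3 and 51.7 in heavy against 20.7 and 13.8 in light fractions. The log2 difference was 1.84 in each (SE 0.28 and 0.23; limma adjusted p = 0.000731 and 0.000258), and in each the heavy libraries lay wholly above the light ones. Of the transcripts called with no overlap between groups, uc007wth.1 (1.18) and uc009nwk.1 (0.92) came next; uc009nwk.1 was not called without the first control heavy library (0.77) or the first control light library (0.67).

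With Rpl10a siRNA the median lay on the light side again, at -0.21 against 0.16 over all transcripts. Of the RPS25-only transcripts, 23 were called higher in light fractions (22.3%, against 22.1% of all) and 14 higher in heavy polysomes (13.6%, against 31.6% of all). Of the 31 called light with control siRNA, 18 were called light again, and 7 of the 14 called heavy were called heavy again. None was called on opposite sides under the 2 siRNAs, which come from 1 fit of all 8 libraries. The matching shares over all transcripts were not computed, so these repeats are a description. uc011ztw.1 was the most light-sided, with 43.1 and 74.6 in heavy against 257.8 and 446.3 in light fractions (log2 difference -2.56, SE 0.29, limma adjusted p = 0.000357). uc009nwk.1 was the most heavy-sided, with 10 and 12.2 in heavy against 3.4 and 3.2 in light fractions (log2 difference 1.49).

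**Figure D4:**
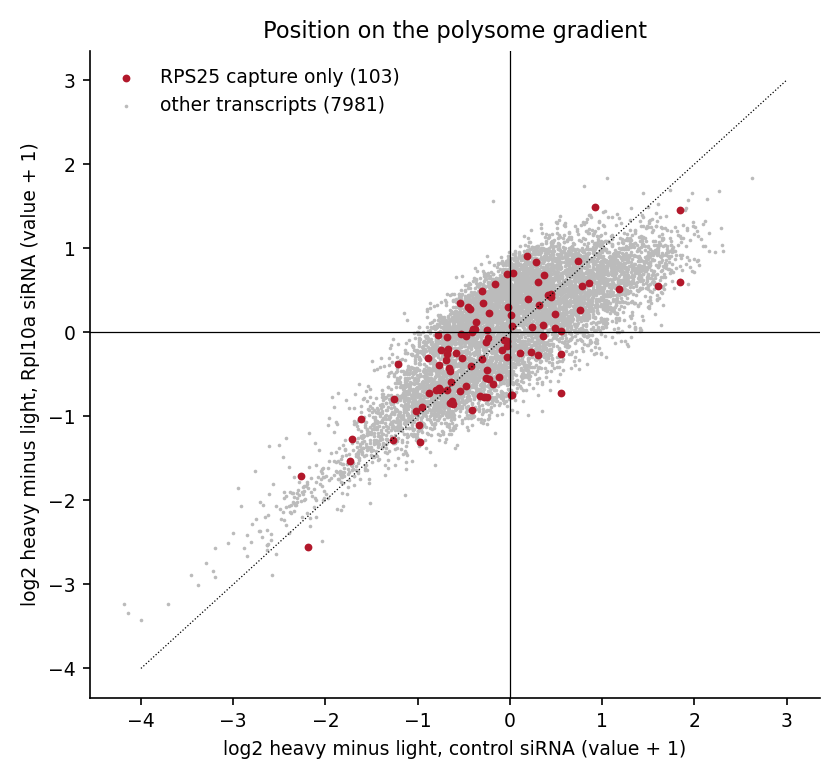
Log2 difference of heavy polysomes minus light fractions (value + 1) with control siRNA (x axis) and with Rpl10a siRNA (y axis), 1 point per transcript of the RNA-seq table. Red points are the 103 RPS25-only transcripts, with medians of -0.26 and -0.21, and the dotted diagonal marks equal differences under both siRNAs.

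The Rpl10a siRNA targets a ribosomal protein other than the one that captured this group, though the RPL10A capture also entered the rule. The RNA-seq holds no unfractionated RNA, so changes in mRNA level were not measured apart from those in the fractions. In heavy polysomes, 21 of the 103 transcripts rose with Rpl10a siRNA (20.4%, against 26.8% of all 8084) and 13 fell (12.6%, against 22.7% of all), and 69 were not called (limma, adjusted p below 0.05). The count of 34 called fell to 14 when the second control heavy library was left out, to 19 when the first was, and to 22 when the first Rpl10a heavy library was left out, with 18.6%, 37.8% and 31.7% of all transcripts called. The shares that rose and that fell were both below those of all transcripts. Standard errors were larger for the 103, with a median of 0.203 against 0.157 over all, and the part of this in the shares was not tested. Of the 137 transcripts enriched in both FLAG captures, 24.1% rose and 9.49% fell. Of the 147 enriched in the RPL10A capture only, 19.0% rose and 21.1% fell. The median change of the 103 was 0.06, against 0.01 over all transcripts. Direction depended on scaling: with library medians aligned, which moved the median of all transcripts by 0.13 (0.01 as deposited, -0.12 aligned), 16 of the group rose and 20 fell. With equal library totals, where the median of all transcripts was 0.12, 23 rose and 5 fell. In these fits 35.0% and 27.2% of the group were called, against 51.5% and 45.7% of all transcripts. How the calls of all transcripts split by direction in these fits is not given here.

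Several abundant members were among those that rose. Of the 6 most abundant RPS25-only transcripts, 4 rose in heavy polysomes, as did 17 of the other 97, against 26.8% of all 8084 transcripts. The share among all transcripts of like abundance was not examined. uc008ljb.2 had 924.2 and 754.3 with Rpl10a siRNA against 465.6 and 471.3 with control siRNA (log2 change 0.83, SE 0.14, limma adjusted p = 0.00373). uc008tuj.1 had 412.6 and 318.9 with Rpl10a siRNA against 182.0 and 171.4 with control siRNA (log2 change 1.03, SE 0.14, limma adjusted p = 0.00282). In both, the heavy-polysome groups were far apart, while the light-fraction values stayed closer: 509.6 and 510.0 with Rpl10a siRNA against 417.5 and 500.0 with control siRNA for uc008ljb.2, and 249.1 and 236.3 against 184.9 and 210.7 for uc008tuj.1.

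uc007rod.2 had 155.2 and 144.2 in heavy polysomes with Rpl10a siRNA against 80.2 and 78.3 with control siRNA (log2 change 0.91, SE 0.12, limma adjusted p = 0.00230). uc007cyb.2 had 186.2 and 123.5 with Rpl10a siRNA against 74.7 and 70.3 with control siRNA (log2 change 1.06, SE 0.18, limma adjusted p = 0.00399). Neither transcript was called in the light fractions, where the log2 changes were 0.16 and 0.25. The other abundant members were not called in heavy polysomes. uc008uzv.1 rose in the light fractions (84.7 and 73.6 against 53.1 and 49.3, log2 change 0.62, limma adjusted p = 0.0362). In heavy polysomes uc008uzv.1 had 68.5 and 59.9 with Rpl10a siRNA against 49.1 and 51.3 with control siRNA. Those groups were separate, and the change was close to the threshold (log2 change 0.35, limma adjusted p = 0.0526). uc009elo.1 was called in neither fraction, its replicates lying far apart in every group.

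**Figure D5:**
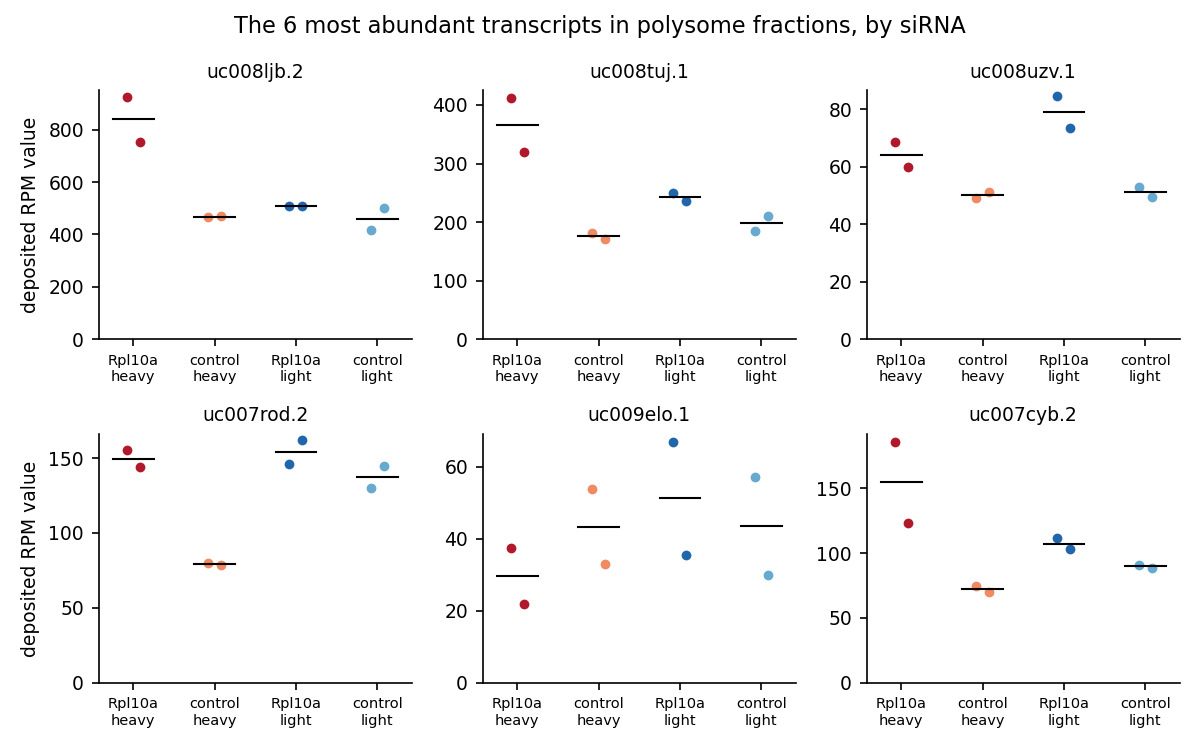
Deposited RPM value (y axis, from 0) of the 6 most abundant RPS25-only transcripts in heavy polysomes and light fractions with Rpl10a or control siRNA, 1 point per library and a line at the mean of 2. For uc008ljb.2, uc008tuj.1, uc007rod.2 and uc007cyb.2 both heavy libraries with Rpl10a siRNA lie above both with control siRNA, at log2 changes of 0.83, 1.03, 0.91 and 1.06.

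The largest rises in heavy polysomes were those of uc007cng.2 and uc008mjv.1. uc007cng.2 had 53.7 and 66.0 with Rpl10a siRNA against 16.1 and 17.1 with control siRNA (log2 change 1.78, SE 0.28, limma adjusted p = 0.00339). uc008mjv.1 had 33.9 and 39.3 with Rpl10a siRNA against 10.2 and 10.9 with control siRNA (log2 change 1.70, SE 0.19, limma adjusted p = 0.00184). Both also rose in the light fractions, by log2 changes of 1.41 and 1.27 (limma adjusted p = 0.0336 for each), so their rise was not limited to heavy polysomes. uc007zpx.1 (1.31) and uc009qms.1 (1.18, not called without the second control heavy library, at 0.97) followed in the heavy polysomes.

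The falls were smaller. uc007myj.1 had 5.9 and 7.0 with Rpl10a siRNA against 11.7 and 12 with control siRNA in heavy polysomes, and 13.9 and 12.6 against 27.7 and 22.6 in light fractions. It fell in both, by 0.79 and 0.87 on the log2 scale (SE 0.17 each; limma adjusted p = 0.00725 and 0.0336). uc033fzh.1, uc007qsm.2 and uc008cqy.1 fell in heavy polysomes by 0.78, 0.70 and 0.68. None of the 4 was called when the second control heavy library was dropped, and none of these 3 when the first Rpl10a heavy one was, with the values of these 3 between -0.85 and -0.43 in those fits. uc009ine.1 had 11.9 and 14.1 with Rpl10a siRNA against 23.8 and 18.5 with control siRNA in heavy polysomes (log2 change -0.66, limma adjusted p = 0.0187), and 34.2 and 32.6 against 48.2 and 37.2 in light fractions, where it was not called (-0.33).

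In the light fractions 9 of the 103 were called on knockdown (8.74%, against 6.12% of all): 7 rose (6.80%, against 2.51% of all 8084) and 2 fell (1.94%, against 3.61% of all), with a median change of 0.00 against 0.02 over all transcripts (limma, adjusted p below 0.05). uc007cng.2, uc008mjv.1, uc009jkj.1 and uc011ztw.1 rose in both fractions, while uc007myj.1 and uc007wvd.1 fell in both. uc009jkj.1 was chosen for naming after its values were seen. uc008ilx.1 rose most in the light fractions, with 51.1 and 69.8 with Rpl10a siRNA against 17.9 and 18.0 with control siRNA (log2 change 1.68, SE 0.27, limma adjusted p = 0.0336). In heavy polysomes the same transcript had 26.4 and 48.2 with Rpl10a siRNA against 24.7 and 29.2 with control siRNA, and its shift of -1.28 was not called (limma adjusted p = 0.070). uc011ztw.1, the light-sided mRNA described above, had 257.8 and 446.3 with Rpl10a siRNA against 150.5 and 127.5 with control siRNA in light fractions (log2 change 1.29, SE 0.29, limma adjusted p = 0.0444). The calls of the whole table depended on single libraries: leaving out a single library gave 0 calls among the 103, and 0 among all 8084, for either control library of either fraction and for the second Rpl10a light library. Without the first Rpl10a light library 4 of the 103 and 90 of the 8084 were called.

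The polysome shift, the heavy-minus-light difference with Rpl10a siRNA minus that with control siRNA, was called for 1 of the 103 transcripts (0.971%, against 6.43% of all 8084; limma, adjusted p below 0.05), in the higher direction (2.86% of all), and for none in the lower (3.57% of all). At an unadjusted p below 0.05 there were 14 (13.6%, against 30.5% of all). The median shift was 0.05, against 0.09 over all transcripts, and 58 of 103 (56.3%) were above 0, against 56.2% of all. Standard errors of the group were larger than those of the table, with a median of 0.287 for the shift against 0.222 over all transcripts.

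The called transcript was uc007rod.2, which moved toward the heavy polysomes. With Rpl10a siRNA it had 155.2 and 144.2 in heavy against 145.8 and 161.9 in light fractions, and with control siRNA 80.2 and 78.3 in heavy against 130.0 and 144.4 in light fractions (log2 shift 0.74, SE 0.16, limma adjusted p = 0.0409). Its heavy and light libraries overlapped with Rpl10a siRNA and were separate with control siRNA. Leaving out single libraries gave shifts of 0.67 to 0.82, and it was called in 1 of these 8 fits, the one without the second Rpl10a heavy library, in which 11 of the 103 (10.7%) and 25.6% of all transcripts were called. The other 3 abundant transcripts that rose in heavy polysomes had shifts of 0.67 (uc008ljb.2), 0.74 (uc008tuj.1) and 0.80 (uc007cyb.2), with limma adjusted p of 0.0669, 0.0621 and 0.0813, so they were not called. With library medians aligned uc007rod.2 was not called (log2 shift 0.63) and uc007pun.1 was called instead, toward the light fractions (-1.35, SE 0.33, limma adjusted p = 0.0462); as deposited, uc007pun.1 had a shift of -1.24 (limma adjusted p = 0.0577).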

How the data were processed

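The authors deposited RPKM values per transcript for each footprint library and, for each RNA-seq library, values called RPM, per the file headers. The RNA-seq values sum past what RPM allows in the control siRNA columns and are treated as a scaled signal, as deposited. The submitters' processing notes name cutadapt, Bowtie2, STAR (RNA-seq and Rpl22 line) and mm10; how reads shared by transcripts were assigned is not given in the sources. Whole reads could not be recovered, so depth is unknown and no count test was run.

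Tests used limma 3.58.1 (R 4.3.3) on log2(value + 1), which understates changes of low values, with a variance trend, over all transcripts of a table (4 libraries for RPL22; 1 fit of 8 RNA-seq libraries). P-values were two-sided and Benjamini-Hochberg adjusted over the table, with calls below 0.05. The fits were tested on simulated data. Samples were grouped by title; the labels do not say that replicates are separate cultures, so p-values measure a spread that may be technical. Identical values made up at most 1.53% of a replicate pair.

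The transcripts, lists and settings were chosen with earlier results of these data known. Named transcripts are the 12 with the largest R25 minus R10, the 6 most abundant in the Rps25 line, up to 4 called per direction and comparison (or the 2 with the smallest p), those at the thresholds and the 2 left out. Alternatives were pseudocounts of 0.5 and 5, no variance trend, a mean value of at least 10, aligned library medians, equal library totals, a replicate block, single libraries left out, each fraction fitted alone, a stricter rule (R25 at least 0.8, R10 at most 0) and ratios without a pseudocount.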

Additional observations from a re-analysis of the deposited data

Results flagged for a closer look

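For uc007rod.2 the effect of Rpl10a siRNA differed between heavy and light fractions by a test of the difference itself, with a shift of 0.74 on the log2 scale (limma adjusted p = 0.0409). It was 1 of 103 RPS25-only transcripts called in that test (0.971%), against 6.43% of all transcripts, and other settings moved this count. The call itself depended on the setting: uc007rod.2 was not called with library medians aligned. Without a variance trend 0 of the 8084 transcripts were called.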

How the results depend on the processing

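In the RPL22 capture the count of called transcripts stayed at 0 except with a replicate block (3 of 85, among them uc007jxz.1 and uc007lxr.1, against 8.06% of all), and the median was -0.14 with equal library totals, -0.02 with medians aligned, -0.07 under the stricter rule, -0.03 without a pseudocount in the rule and -0.08 to -0.02 without single libraries. For heavy against light with control siRNA, 26 to 51 were called without single libraries (median -0.36 to -0.18), and the stricter rule, which kept 18 transcripts, gave 10 called, all light, with a median of -0.69. With Rpl10a siRNA, 62 were called with a replicate block (60.2%, against 66.9% of all), and the median was -0.31 to -0.06 without single libraries. The stricter rule gave 10 called (55.6%, against 53.7% of all) and a median of -0.67, and a mean value of at least 10 a median of -0.07. For heavy polysomes on knockdown, aligned medians gave 36 calls (35.0%, against 51.5% of all), 16 higher and 20 lower, which turned the more frequent direction. A replicate block gave 62 (64.9% of all), the stricter rule 5 and single libraries left out 14 to 34: 19 without the first control heavy library, 14 without the second, and 22 when the first Rpl10a heavy one was dropped. The median there was 0.16 with equal totals, -0.07 with aligned medians, 0.13 with a mean value of at least 10, 0.22 under the stricter rule, 0 without a pseudocount in the rule and -0.01 to 0.15 without single libraries. For light fractions on knockdown, 5 were called without a variance trend, 22 with a replicate block (23.7% of all), 1 under the stricter rule and 0 to 9 without single libraries. The shift had 0 calls without a trend (0.0% of all) or under the stricter rule (6.43% of all). A replicate block gave 17 shift calls (16.5%, against 31.2% of all), 11 higher and 6 lower. Aligned medians gave 1 shift call (0.971%, against 6.48% of all), which was lower. The median shift was -0.06 with aligned medians and 0.17 under the stricter rule. The stricter rule gave 18 transcripts, and leaving out single libraries of the rule 87 to 179. The cause of these differences was not tested, beyond the smaller list of the stricter rule and the group of 1 that a left-out library leaves, whose lone sample is assumed to vary like the others. Of 493 values of single transcripts under the alternatives, 423 kept their direction and side of the threshold, 68 kept their direction and were no longer called, 2 became called and none turned. The labels do not tie replicate numbers to cultures or days, so the replicate block was not used in the main results. Same-numbered libraries deviated together in the RNA-seq (r = 0.40 to 0.62 between groups, across 8084 transcripts) and less in the Rpl22 line (0.18). Count tests were not run, as no whole reads could be recovered. Low densities limit the precision: the median SE of the shift was 0.287 for these transcripts.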
